A study of Homo sapiens with 16 samples.

Results

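The 45 genes described here are interferon-stimulated genes that encode effector proteins outside the OAS and IFIT families. They were taken as a list of names and matched by symbol to the rows of the expression table. The list was chosen with earlier results of these data known, so its contrast with all genes is a description only. Each of the 45 had 1 row among the 78894 genes and other features measured, and all 45 were among the 16218 genes that passed a filter of 1 CPM (assigned reads scaled to a library total of 1000000) or more in 4 libraries or more and so could be tested. RNA was sequenced from T47D, an established line of human luminal breast cancer cells with estrogen receptor. Cells with a knockout of FAH, the hydrolase that ends the breakdown of tyrosine, or with a control guide were kept for 3 days in 500 nM abemaciclib, which inhibits CDK4 and CDK6 and so blocks entry into S phase, or in vehicle. This gave 4 groups of 4 libraries, which were FAH knockout cells under abemaciclib, control cells under abemaciclib, FAH knockout cells under vehicle and control cells under vehicle. The sources used here give neither the guide sequences nor whether the knockout line is clonal.

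Interferons bind receptors at the cell surface, whose JAK kinases activate transcription factors of the STAT family. A complex of these with IRF9 binds promoters at interferon-stimulated response elements, which are built of paired GAAA half-sites, while STAT dimers bind a palindrome known as the GAS element. The genes switched on in this way encode proteins that act against viruses at many steps, such as tagging proteins with ISG15, trapping or degrading viral RNA and holding particles at the membrane, and many of them are also expressed in tumour cells to which no interferon has been added.

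Almost the whole list was higher in knockout cells, and abemaciclib raised much of it in control cells. Summed over the 45 genes, expression was 2490 to 2515 CPM in knockout cells under abemaciclib, 2018 to 2123 CPM in control cells under abemaciclib, 2058 to 2087 CPM in knockout cells under vehicle and 1262 to 1287 CPM in control cells under vehicle. The sums of the vehicle-treated knockout libraries and the abemaciclib-treated control libraries overlapped, and all other groups stood apart from each other. Because a few abundant genes such as BST2 dominate such a sum, the genes are described one by one below.

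Promoters of the list were searched for the paired half-sites. The list was chosen as interferon-stimulated genes. An excess of matches over all windows can come from that choice alone and is no evidence on the knockout or the drug. In the 250 bases before each RefSeq transcript start on GRCh38.p14, on both strands, GAAANNGAAA was present in 24 of 59 windows of the list (40.7%) and in 1061 of all 35116 windows (3.02%). Counted by gene, 21 of the 41 listed genes with a RefSeq window (51.2%) held it, against 1014 of 27305 genes (3.71%). A GAS-like TTCNNNGAA was present in 11 of the 59 windows (18.6%) and in 2306 of all windows (6.57%), and the letters of the 2 motifs can overlap. The stretches below were chosen because they belong to genes on which the comparisons turn. They run 5′ to 3′ on the strand of the gene, with the paired half-sites in capitals, and those read on the opposite strand appear as TTTC.
ISG15 (chr1:1013364-1013413, plus strand): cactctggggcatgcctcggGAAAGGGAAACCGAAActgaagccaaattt
MX1 (chr21:41431834-41431883, plus strand): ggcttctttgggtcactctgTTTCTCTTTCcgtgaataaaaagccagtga
RSAD2 (chr2:6877612-6877661, plus strand): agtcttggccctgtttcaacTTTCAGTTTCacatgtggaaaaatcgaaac
BST2 (chr19:17405725-17405774, minus strand): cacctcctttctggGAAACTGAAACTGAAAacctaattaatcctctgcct
SAMD9 (chr7:93118086-93118135, minus strand): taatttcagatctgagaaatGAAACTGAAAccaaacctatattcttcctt
DDX60 (chr4:168318811-168318860, minus strand): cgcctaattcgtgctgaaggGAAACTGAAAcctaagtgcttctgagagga
PARP9 (chr3:122564312-122564361, minus strand): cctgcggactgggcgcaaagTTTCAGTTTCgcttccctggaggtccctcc
IFI27 (chr14:94110608-94110657, plus strand): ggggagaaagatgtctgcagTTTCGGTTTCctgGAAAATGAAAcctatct
LGALS3BP (chr17:78979952-78980001, minus strand): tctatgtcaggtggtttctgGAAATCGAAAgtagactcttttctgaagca
ISG15 and BST2 held 3 half-sites in a row, which count as 2 overlapping pairs. IFI27 held a pair on each strand with a short gap between them, and DDX60 held a second pair nearer the start, not shown. PARP9 and DTX3L are transcribed away from each other, and the PARP9 pair at 122564332 to 122564341 spanned the first transcribed base of DTX3L, 122564338, while the window before the DTX3L start held no match. Among the 20 genes with a window and no match were XAF1, SP100, HELZ2, HERC6 and CMPK2. The median log2 change between knockout and control under vehicle was 0.92 over the 21 genes with a match and 0.59 over the 20 without, with ranges of 0.30 to 1.70 and 0.09 to 1.67 that overlap over most of their length. A match describes the letters of the window and does not show that a factor binds there.

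**Figure D1:**
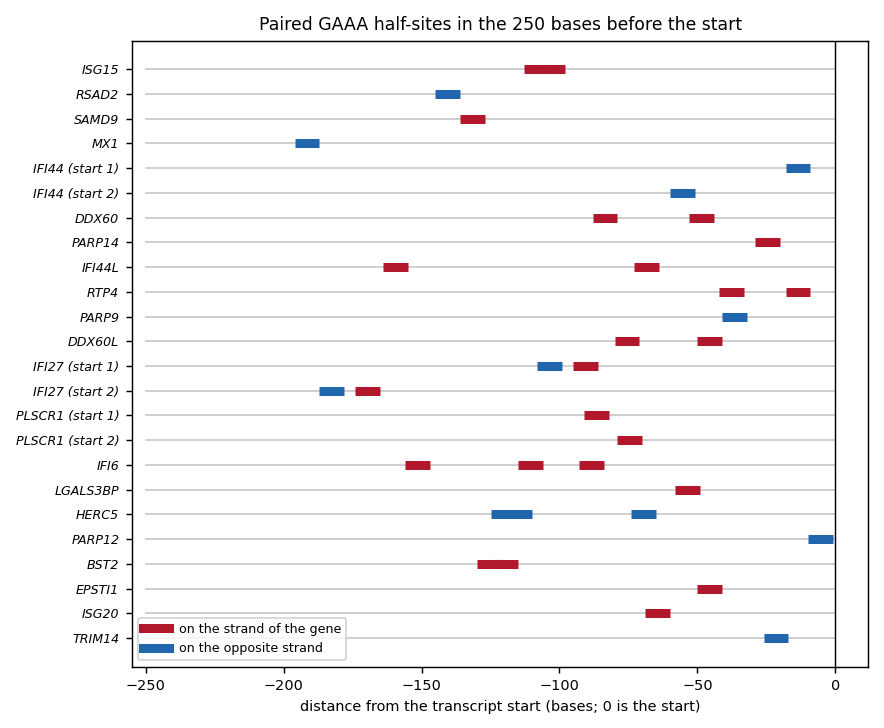
Position of each GAAANNGAAA match in the 250 bases before the transcript start, for the 24 windows of 21 listed genes that held at least 1 match, ordered from the top by the log2 change between knockout and control cells under vehicle. The x axis is the distance from the start in bases, the bars are the matches, and the colour gives the strand. ISG15, BST2 and HERC5 each show 2 overlapping matches as 1 longer bar.

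The libraries held 9915776 to 11963093 assigned reads, so that 1 read was worth 0.0836 to 0.101 CPM and 1 CPM stood for 10 to 12 reads. Gene positions are those of GENCODE release 29 on GRCh38. CPM are not divided by gene length and are compared here only between libraries, gene by gene. FAH, the targeted gene, was at 5.03 to 6.79 CPM in knockout against 22.6 to 25.8 CPM in control libraries under abemaciclib, and at 6.27 to 7.02 against 25.1 to 28.2 CPM under vehicle, a log2 change of -1.89 and -1.84 (SE 0.0789). The 13 luminal markers summed to 17988 to 18348, 13937 to 14591, 14997 to 15411 and 11667 to 11877 CPM in the 4 groups in the order given above. With the knockout under vehicle 5 of them rose and 8 fell by the test below, beside 24.6% and 13.1% of all tested genes. The 14 leukocyte markers summed to at most 8.62 CPM in any library, with PTPRC at no more than 1.70 CPM, and none of their 5 tested genes differed between knockout and control cells. Of plasmacytoid dendritic cells, a main source of interferon, LILRA4 was at 0 in every library and CLEC4C at no more than 0.0837 CPM, while TCF4, the 1 gene of that list tested, was lower in knockout cells under vehicle. Endothelial markers summed to at most 0.298 CPM, and HEK293-type markers, against mixing with another line, to 32.8 to 45.7 CPM with 1 of 2 tested genes higher in knockout cells under vehicle. Most of that sum was HOXC6, and SOX11, NEFM, NEFL, PAX2 and STMN2 were each at no more than 0.908 CPM. Fibroblast markers, mostly COL1A1, summed to 63.5 to 68.6, 55.1 to 67.7, 53.2 to 63.0 and 45.9 to 48.4 CPM, and their part in the differences below was not tested. No label ties the 4 libraries of a group to separate cultures, so the p-values rest on a spread between libraries that may be technical. In such bulk RNA, fewer cells of one kind and less RNA per cell cannot be told apart.

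Between knockout and control cells under vehicle, 42 of the 45 genes rose and none fell at an adjusted p under 0.05 in limma, the call used throughout, while 24.6% of all tested genes were called higher and 13.1% lower. The median log2 change of the list was 0.64 and that of all tested genes was 0.06. The 3 genes not called were MX2, IFI30 and PNPT1. IFI16, TRIM22 and RTP4 reached 1 CPM in fewer than 4 of the 8 control libraries and passed the filter only through knockout libraries, so that their rise is no support. Without them, in a count made after the data had been seen, 39 of 42 genes rose. Every rise, fall or change given for a gene is a difference between group means of log2(CPM + 1), with its standard error (SE) from the fit. Under abemaciclib 33 genes rose with the knockout and 1, IFI27, fell, beside 18.6% of all tested genes called higher and 11.3% lower, and the medians were 0.42 and 0.04. Without the same 3 genes 31 of 42 rose under abemaciclib. Rescaling the libraries by the median of ratios gave 2825 higher and 2983 lower calls over all genes under vehicle in place of 3987 and 2121, and 2126 and 2408 under abemaciclib in place of 3020 and 1837, and of the list 40 then rose and none fell under vehicle and 31 rose and 1 fell under abemaciclib. The 2 knockout comparisons use different libraries, but of the same knockout and control cells and in a shared fit. Any other difference between those cells would enter both, so they are not separate evidence either. The 2 comparisons of abemaciclib with vehicle below share libraries with the knockout comparisons, so their calls are given side by side and not counted as separate evidence.

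**Figure D2:**
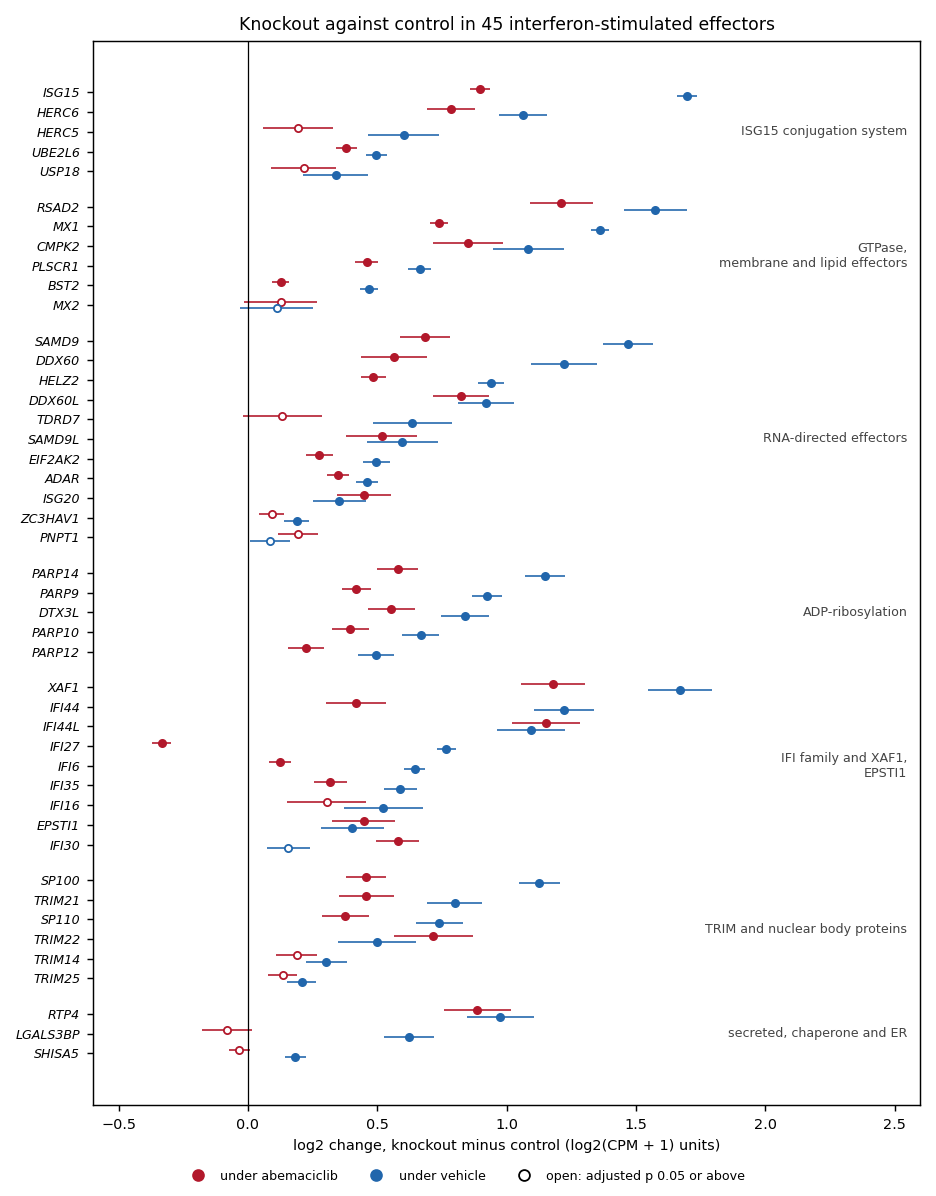
Difference between knockout and control cells in log2(CPM + 1) for each of the 45 genes, grouped by role, under abemaciclib (red) and under vehicle (blue). Points are the means of 4 against 4 libraries, bars are 1 standard error of the limma fit, and open points were not called. Under vehicle all 45 points lie above 0; under abemaciclib IFI27, LGALS3BP and SHISA5 lie below 0.

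In control cells abemaciclib raised 32 genes of the list and lowered 3, beside 19.6% of all tested genes called higher and 31.1% lower, with medians of 0.42 for the list and -0.05 for all genes. In knockout cells it raised 19 and lowered 4, beside 11% called higher and 27.4% lower, with medians of 0.16 and -0.07. Without IFI16, TRIM22 and RTP4, the genes raised were 30 in control cells and 17 in knockout cells. Rescaling by the median of ratios turned the calls over all genes to 4166 higher and 4017 lower in control cells, in place of 3181 and 5039, and to 3173 and 2886 in knockout cells, in place of 1780 and 4444. Of the list, 34 then rose and 2 fell in control cells, and 25 rose and 2 fell in knockout cells. All 19 genes that rose in knockout cells also rose in control cells, and 13 others rose in control cells without being called in knockout cells. Mean expression was highest in knockout cells under abemaciclib for 29 genes, in knockout cells under vehicle for 13 and in control cells under abemaciclib for IFI27, LGALS3BP and SHISA5. It was lowest in control cells under vehicle for 40 genes and in control cells under abemaciclib for IFI30, EPSTI1, HERC5, USP18 and PNPT1. IFI16, TRIM22 and RTP4 are among the 29 and among the 40. They passed the filter only through knockout libraries, so their place in this order is no support. How many of all tested genes show the same order was not counted.

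**Figure D3:**
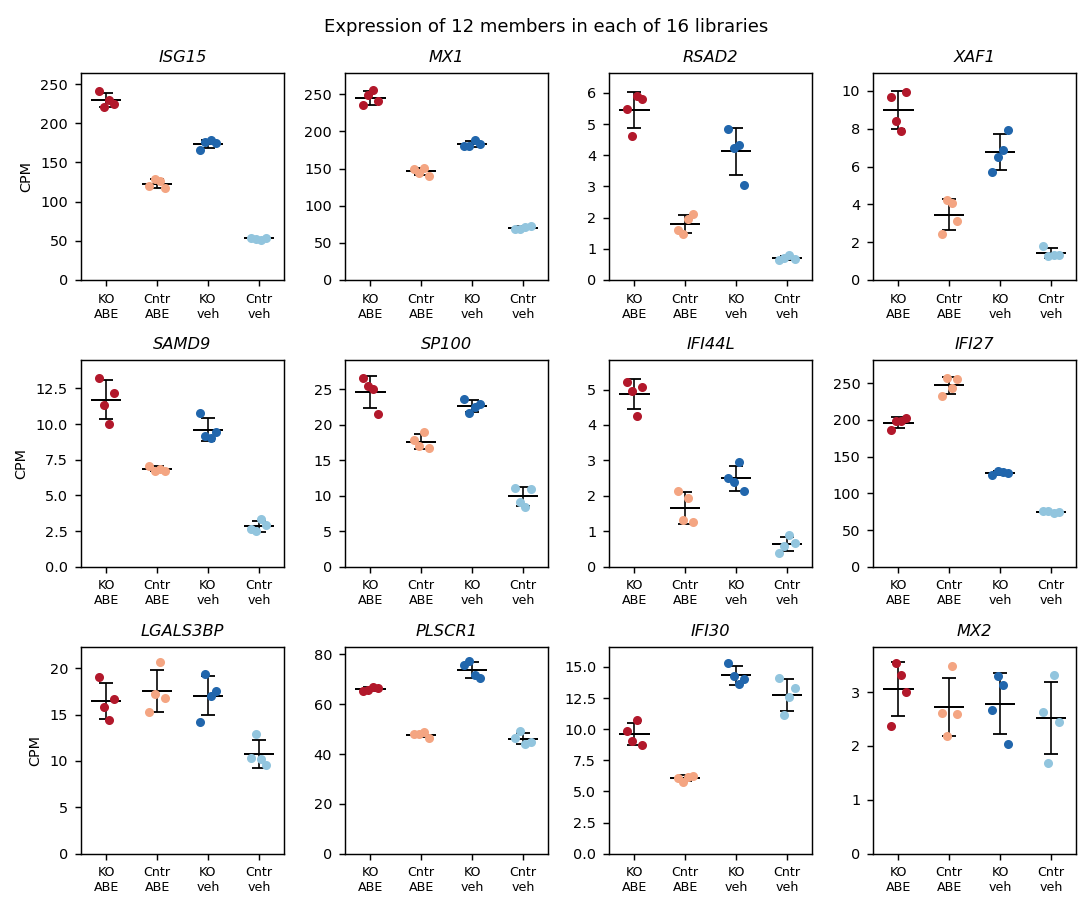
CPM of 12 of the genes in each of the 16 libraries, with the mean (line) and standard deviation (bars) of each group of 4. From left to right the groups are knockout cells under abemaciclib (KO ABE), control cells under abemaciclib (Cntr ABE), knockout cells under vehicle (KO veh) and control cells under vehicle (Cntr veh); ISG15 and MX1 show 4 separate levels, IFI27 is highest in control cells under abemaciclib, and MX2 shows no separation.

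The ISG15 conjugation system was led by its modifier. ISG15 is a ubiquitin-like protein (chr1:1001138-1014540) that is joined to other proteins and also secreted. It had 242, 221, 230.2 and 225 CPM in knockout cells under abemaciclib, against 119.6, 129, 126 and 117 CPM in control cells under abemaciclib. Under vehicle it had 166, 176, 178 and 175 CPM in knockout cells, against 53.5, 52.7, 51.5 and 54.1 CPM in control cells. The 4 groups did not overlap, and every knockout library, treated or not, lay above every control library. Its log2 change with the knockout was 1.70 under vehicle and 0.90 under abemaciclib (SE 0.0386; limma adjusted p = 2.7e-26 and 7.0e-19). The vehicle change was the largest of the list on the log2(CPM + 1) scale only. The added 1 CPM shrinks the ratios of low genes such as RSAD2, with means of 4.12 against 0.704 CPM under vehicle. With abemaciclib ISG15 rose by 1.20 in control cells and by 0.40 in knockout cells on the log2(CPM + 1) scale. UBE2L6, the enzyme that passes ISG15 on to ligases, rose with the knockout under both treatments (0.38 under abemaciclib and 0.50 under vehicle).

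The ligases HERC5 and HERC6 are neighbours on chromosome 4. HERC5, the main ligase for ISG15 in human cells, had 2.38, 1.86, 2.12 and 1.45 CPM in knockout cells under abemaciclib and 2.52, 1.49, 1.19 and 1.25 CPM in control cells under abemaciclib. In vehicle it stood at 3.43, 3.49, 2.96 and 3.60 CPM in knockout cells and 2.02, 1.88, 2.02 and 1.60 CPM in control cells. The vehicle-treated knockout libraries were above all 12 others, and the abemaciclib groups overlapped. HERC5 rose with the knockout under vehicle by 0.60 (SE 0.136; limma adjusted p = 6.2e-04), was not called under abemaciclib (0.19, adjusted p = 0.31 in limma) and fell with abemaciclib in knockout cells by 0.57 on the log2 scale. HERC6, which carries this ligase role in mice, showed 14.5, 11.95, 12.1 and 13.5 CPM in knockout and 6.73, 7.45, 6.37 and 7.995 CPM in control cells under abemaciclib. Its vehicle values were 10.95, 11.6, 12.8 and 11.2 CPM in knockout and 5.85, 5.26, 4.74 and 4.43 CPM in control cells. Knockout libraries of HERC6 were above control libraries under both treatments (0.79 under abemaciclib, 1.06 under vehicle). USP18, the protease that removes ISG15, was low, at 1.65 ± 0.171, 1.31 ± 0.439, 1.99 ± 0.129 and 1.36 ± 0.0900 CPM in the 4 groups (SD, n = 4). USP18 rose by 0.34 under vehicle (limma adjusted p = 0.033). The call was lost with either rescaling of the libraries (0.0689 and 0.0927) and with no filter on low values (0.0869). It was also lost without knockout vehicle library 1, 2 or 3 or control vehicle library 1, 3 or 4 (0.0564 to 0.0699).

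Among the GTPases, MX1 changed and MX2 did not pass the test. MX1 (chr21:41420304-41459214), a dynamin-like GTPase that blocks influenza and other viruses, had 235, 249, 256 and 240.5 CPM in knockout cells under abemaciclib, against 149.9, 144, 151 and 140.5 CPM in control cells. Under vehicle there were 180.2, 180.2, 188 and 183 CPM in knockout cells, against 69.0, 69.0, 71.4 and 73.0 CPM in control cells. As with ISG15, the 4 groups stood apart and both knockout groups were above both control groups. The change with the knockout was 1.36 under vehicle and 0.74 under abemaciclib (SE 0.0360; limma adjusted p = 8.9e-25 and 1.7e-17). MX2, its neighbour on chromosome 21 and a restriction factor for HIV, had 2.38, 3.54, 3.31 and 2.996 CPM in knockout and 2.62, 2.19, 3.48 and 2.601 CPM in control cells under abemaciclib. In vehicle MX2 had 2.67, 3.29, 3.13 and 2.03 CPM in knockout and 2.62, 1.69, 3.33 and 2.45 CPM in control cells. All 4 groups of MX2 overlapped, at log2 changes of 0.13 under abemaciclib and 0.11 under vehicle with an SE of 0.141.

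RSAD2 and CMPK2 lie head to head on chromosome 2 and their annotated genes overlap on opposite strands, so reads in the overlap cannot be told apart without the strand, which is not given in the sources used here. RSAD2, also called viperin, makes a chain-terminating nucleotide, and CMPK2 is the kinase that supplies its substrate. RSAD2 had 5.49, 4.60, 5.90 and 5.81 CPM in knockout cells and 1.59, 1.49, 1.955 and 2.12 CPM in control cells under abemaciclib. Under vehicle RSAD2 had 4.85, 4.24, 4.34 and 3.05 CPM in knockout cells and 0.656, 0.694, 0.806 and 0.660 CPM in control cells. CMPK2 stood at 3.02, 3.81, 3.48 and 2.72 CPM in knockout cells and 1.49, 1.49, 1.27 and 1.16 CPM in control cells under abemaciclib. Both genes were higher in every knockout library than in every control library of the same treatment, and RSAD2 reached 1 CPM in no vehicle-treated control library. In vehicle CMPK2 was at 2.59, 3.09, 2.597 and 2.86 CPM in knockout cells and 1.21, 0.298, 0.907 and 0.848 CPM in control cells. The last group had a standard deviation of 0.380 CPM at a mean of 0.816 CPM. The change with the knockout was 1.58 under vehicle and 1.21 under abemaciclib for RSAD2 (SE 0.123; limma adjusted p = 2.4e-12 and 1.5e-09). For CMPK2 it was 1.08 under vehicle and 0.85 under abemaciclib (SE 0.136).

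BST2, or tetherin, which holds budding virus at the membrane, had 629 ± 11.4 CPM in knockout and 577 ± 33.1 CPM in control cells under abemaciclib, and 485 ± 19.1 against 351 ± 5.86 CPM under vehicle (SD, n = 4). It rose with the knockout by 0.47 under vehicle and by 0.13 under abemaciclib. The last call is lost when the libraries are rescaled by the median of ratios (limma adjusted p = 0.115) or fitted without the variance trend (0.0523). PLSCR1, a lipid scramblase that also blocks viral entry, had 65.5, 65.6, 66.9 and 66.5 CPM in knockout cells and 47.9, 47.9, 48.9 and 46.4 CPM in control cells under abemaciclib. In vehicle its values were 75.9, 77.4, 71.9 and 70.4 CPM in knockout cells and 46.6, 49.2, 44.3 and 44.97 CPM in control cells. Every knockout library was above every control library, and within knockout cells the abemaciclib libraries were below the vehicle libraries. PLSCR1 rose with the knockout by 0.46 under abemaciclib and 0.66 under vehicle. With abemaciclib it fell by 0.16 in knockout cells (SE 0.0442; limma adjusted p = 0.0048), a call that both rescalings end (adjusted p = 0.244 and 0.214 in limma).

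Of 11 genes whose proteins act on RNA or on translation, 10 rose with the knockout under vehicle and 8 under abemaciclib. Of all tested genes, 24.6% and 18.6% were called higher in these 2 comparisons. SAMD9 and SAMD9L, neighbours on chromosome 7 (SAMD9 at chr7:93099513-93118023), restrict poxviruses and slow translation. SAMD9 had 13.3, 11.3, 10.02 and 12.2 CPM in knockout and 7.10, 6.75, 6.88 and 6.74 CPM in control cells under abemaciclib. Its vehicle values were 10.8, 9.18, 9.05 and 9.43 CPM in knockout and 2.62, 2.48, 3.33 and 2.92 CPM in control cells. Both knockout groups lay above both control groups, and the control groups stood apart from each other. SAMD9L was at 3.66, 2.74, 2.80 and 2.27 CPM in knockout and 1.96, 1.66, 1.105 and 2.12 CPM in control cells under abemaciclib. Under vehicle SAMD9L was at 1.505, 1.99, 2.15 and 1.39 CPM in knockout and 0.807, 0.992, 0.706 and 0.754 CPM in control cells, below 1 CPM in all 4 of these control libraries. The change with the knockout was 1.47 under vehicle and 0.68 under abemaciclib for SAMD9 (SE 0.0957; limma adjusted p = 2.7e-14 and 8.8e-07), and 0.60 and 0.52 for SAMD9L (SE 0.138).

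DDX60 and DDX60L encode related helicase-like proteins of the response to viral RNA and lie side by side on chromosome 4. DDX60 had 14.6, 15.1, 12.6 and 17.1 CPM in knockout and 13.3, 9.81, 7.99 and 8.28 CPM in control cells under abemaciclib. In vehicle it had 15.1, 12.7, 11.4 and 10.8 CPM in knockout and 3.43, 5.45, 4.64 and 5.75 CPM in control cells. The vehicle groups stood apart, and under abemaciclib the ranges overlapped through the first control library. DDX60L showed 7.68, 8.94, 7.56 and 8.53 CPM in knockout and 4.76, 4.64, 3.74 and 3.66 CPM in control cells under abemaciclib. Under vehicle it showed 4.18, 5.29, 5.55 and 5.64 CPM in knockout and 2.52, 2.18, 2.12 and 2.17 CPM in control cells. For DDX60L the treated knockout libraries were above all others and the untreated control libraries below all others. The knockout change was 1.222 under vehicle and 0.56 under abemaciclib for DDX60 (SE 0.127; limma adjusted p = 1.9e-09 and 8.0e-04), and 0.92 and 0.82 for DDX60L (SE 0.108).

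EIF2AK2, or PKR, which senses double-stranded RNA and halts translation, had 51.5, 55.3, 52.1 and 55.2 CPM in knockout cells and 46.5, 47.2, 39.9 and 42.9 CPM in control cells under abemaciclib. Under vehicle EIF2AK2 had 59.2, 61.4, 61.9 and 61.3 CPM in knockout cells and 41.7, 45.7, 43.9 and 40.5 CPM in control cells. Knockout libraries were above control libraries under both treatments, and vehicle-treated knockout libraries were the highest. The change with the knockout was 0.28 under abemaciclib and 0.50 under vehicle (SE 0.0514). In knockout cells abemaciclib lowered it by 0.18 (limma adjusted p = 0.0044), and not after either rescaling (0.121 in each). ADAR, which edits double-stranded RNA, rose with the knockout by 0.35 under abemaciclib and 0.46 under vehicle. HELZ2, a helicase of the interferon response, rose by 0.49 under abemaciclib and 0.94 under vehicle. ISG20, an exonuclease, rose by 0.45 under abemaciclib and 0.35 under vehicle, and its vehicle call was lost without control library 3 (limma adjusted p = 0.0512). TDRD7, a Tudor protein that restrains autophagy used by paramyxoviruses, rose by 0.64 under vehicle and was not called under abemaciclib (0.13). ZC3HAV1, or ZAP, which binds CpG-rich viral RNA, rose by 0.19 under vehicle, at an adjusted p of 0.0022 that became 0.052 in limma after rescaling by the median of ratios.

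PNPT1, a mitochondrial exoribonuclease, stood apart from this group. It had 16.1, 16.6, 16.4 and 16.7 CPM in knockout and 14.8, 14.6, 11.5 and 16.5 CPM in control cells under abemaciclib, and 18.8, 18.5, 18.8 and 18.4 against 18.3, 18.2, 18.0 and 15.6 CPM under vehicle. Knockout libraries lay close together and the control libraries were more spread. Under vehicle every knockout library was above every control library, by little. The knockout change was 0.19 under abemaciclib and 0.09 under vehicle, neither called, and abemaciclib lowered PNPT1 in control cells by 0.28 (SE 0.0774; limma adjusted p = 0.003). Values of PNPT1 were whole reads in 2 of 16 libraries, those of ADAR in 4 and those of EIF2AK2 and HELZ2 in 5, so their levels are uncertain, since fractions of reads can come from reads shared with other features.

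The 5 genes of ADP-ribosylation, PARP9, PARP10, PARP12, PARP14 and DTX3L, all rose with the knockout under both treatments and with abemaciclib in control cells. Of all tested genes, 24.6% were called higher with the knockout under vehicle, 18.6% under abemaciclib and 19.6% with abemaciclib in control cells. PARP14 (chr3:122680618-122730840), a mono-ADP-ribosyltransferase that enhances interferon signalling, had 53.3, 52.7, 49.0 and 50.3 CPM in knockout and 43.1, 34.5, 30.8 and 29.2 CPM in control cells under abemaciclib. Under vehicle PARP14 had 43.8, 40.6, 49.8 and 44.2 CPM in knockout and 19.9, 17.3, 20.9 and 20.3 CPM in control cells. Both knockout groups were above the vehicle-treated control group, and the treated control libraries were the most spread. The change was 1.15 under vehicle and 0.58 under abemaciclib (SE 0.0786; limma adjusted p = 9.0e-14 and 5.1e-07). PARP10, which attaches single ADP-ribose units, changed by 0.67 under vehicle and 0.40 under abemaciclib. PARP12, which acts against alphaviruses, changed by 0.49 under vehicle and 0.22 under abemaciclib.

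PARP9 and DTX3L form a complex that ubiquitinates histones and viral proteases, and they share the promoter region printed above. PARP9 had 40.6, 44.7, 42.2 and 43.9 CPM in knockout and 31.3, 30.8, 30.7 and 34.4 CPM in control cells under abemaciclib. In vehicle there were 33.6, 33.4, 33.0 and 34.7 CPM in knockout and 17.6, 15.6, 18.4 and 17.5 CPM in control cells. DTX3L had 20.2, 23.9, 21.2 and 19.97 CPM in knockout and 17.9, 14.4, 13.9 and 11.2 CPM in control cells under abemaciclib. For both genes the knockout libraries were above the control libraries of the same treatment. DTX3L in vehicle had 19.1, 19.4, 19.5 and 21.0 CPM in knockout and 12.001, 9.42, 10.9 and 10.2 CPM in control cells. PARP9 rose by 0.92 under vehicle and 0.42 under abemaciclib, and DTX3L by 0.84 and 0.55. With abemaciclib PARP9 rose in both genotypes (0.34 in knockout and 0.84 in control cells), while DTX3L was called in control cells alone (0.39, against 0.10 in knockout cells). Their annotated genes overlap on opposite strands, and the part of shared reads was not tested.

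The IFI family and 2 genes often listed with it held the largest spread of responses. Beside 24.6% of all tested genes, 8 of its 9 genes rose with the knockout under vehicle, or 7 of 8 without IFI16. XAF1 (chr17:6755447-6775647), which promotes apoptosis, had 9.69, 8.41, 7.90 and 9.94 CPM in knockout cells and 2.43, 4.21, 4.06 and 3.13 CPM in control cells under abemaciclib. Under vehicle XAF1 had 5.68, 6.48, 6.90 and 7.95 CPM in knockout cells and 1.82, 1.29, 1.31 and 1.3198 CPM in control cells. Every knockout library was above every control library of either treatment. The change with the knockout was 1.67 under vehicle and 1.18 under abemaciclib (SE 0.124; limma adjusted p = 7.9e-13 and 3.6e-09).

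IFI44 and IFI44L are neighbours on chromosome 1 and encode related proteins that limit virus replication. IFI44 had 9.79, 10.4, 9.77 and 12.3 CPM in knockout and 7.75, 7.36, 8.92 and 6.65 CPM in control cells under abemaciclib. In vehicle IFI44 had 8.19, 9.58, 9.14 and 7.58 CPM in knockout and 2.12, 3.57, 3.02 and 3.96 CPM in control cells. Here the control libraries under vehicle were far below the other 3 groups, which lay closer together. IFI44L had 5.21, 4.96, 4.25 and 5.08 CPM in knockout and 2.15, 1.31, 1.955 and 1.25 CPM in control cells under abemaciclib. In vehicle IFI44L had 2.51, 2.39, 2.96 and 2.13 CPM in knockout and 0.403, 0.595, 0.907 and 0.660 CPM in control cells. For IFI44L the treated knockout libraries stood far above the rest and the untreated control libraries below the rest. IFI44 changed with the knockout by 1.223 under vehicle and 0.42 under abemaciclib (SE 0.116), and IFI44L by 1.09 and 1.15 (SE 0.130). With abemaciclib IFI44L rose in control cells by 0.69 and in knockout cells by 0.75 (limma adjusted p = 1.8e-05), and IFI44 rose in control cells by 1.07 and was not called in knockout cells (0.26, adjusted p = 0.072 in limma).

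IFI27 was the 1 gene called in opposite directions under the 2 treatments; LGALS3BP and SHISA5 also turned sign but were not called under abemaciclib. It encodes a small mitochondrial and nuclear membrane protein (chr14:94104836-94116698). IFI27 had 186, 198, 198 and 203 CPM in knockout cells under abemaciclib, against 233, 257, 244 and 255 CPM in control cells. Under vehicle IFI27 had 125, 131, 129 and 127 CPM in knockout cells, against 75.3, 75.9, 73.7 and 74.1 CPM in control cells. The 4 groups did not overlap, with control cells highest under abemaciclib and lowest under vehicle. IFI27 fell by 0.33 with the knockout under abemaciclib and rose by 0.77 under vehicle (SE 0.0368; limma adjusted p = 9.3e-09 and 8.0e-18). With abemaciclib it rose by 0.61 in knockout cells and by 1.71 in control cells, the largest rise with the drug in the list. IFI6, which protects mitochondria and blocks flavivirus replication, rose with the knockout by 0.64 under vehicle. Under abemaciclib the IFI6 difference was 0.12 (limma adjusted p = 0.021) and its call was lost with both rescalings (0.199 and 0.329). The IFI6 call was also lost with no filter on low values (0.087), without the variance trend (0.0782) and without knockout library 1 or 4 or control library 1 (0.0503 to 0.118). IFI35, a binding partner of NMI, rose by 0.32 under abemaciclib and 0.59 under vehicle. IFI16, a sensor of DNA, reached 1 CPM in 7 knockout and 2 control libraries and so passed the filter through knockout cells. Its differences with the knockout were 0.30 under abemaciclib and 0.52 under vehicle, and the vehicle call was lost with no filter (limma adjusted p = 0.0563).

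IFI30 and EPSTI1 fell with abemaciclib in control cells. IFI30, the lysosomal thiol reductase GILT, had 9.88, 9.08, 10.7 and 8.72 CPM in knockout cells and 6.12, 5.78, 6.16 and 6.26 CPM in control cells under abemaciclib. In vehicle IFI30 had 15.3, 14.3, 13.7 and 14 CPM in knockout cells and 14.1, 11.1, 12.5 and 13.3 CPM in control cells. The vehicle groups overlapped, the treated groups did not, and both treated groups lay below both vehicle groups. IFI30 rose with the knockout under abemaciclib by 0.58 (SE 0.0834; limma adjusted p = 1.4e-06) and was not called under vehicle (0.16). Abemaciclib lowered it by 0.53 in knockout and by 0.96 in control cells. Its values were whole reads in 7 of 16 libraries, and AC007192.1 is annotated over it on the same strand. EPSTI1, a stromal interaction protein known from breast cancer, had 2.84, 3.36, 2.29 and 2.81 CPM in knockout and 2.24, 1.93, 1.61 and 1.44 CPM in control cells under abemaciclib. Under vehicle EPSTI1 had 4.01, 3.79, 2.87 and 3.60 CPM in knockout and 2.32, 2.78, 2.42 and 2.26 CPM in control cells. Knockout libraries were above control libraries under both treatments. EPSTI1 rose with the knockout by 0.45 under abemaciclib and 0.40 under vehicle. The call of its fall of 0.30 with abemaciclib in control cells (limma adjusted p = 0.039) was lost with both rescalings (0.077 and 0.0608). It was also lost with no filter on low values (0.0949), with only the groups compared (0.0521) and without treated control library 3 or 4 or vehicle control library 2 or 3 (0.0601 to 0.133).

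Of 6 TRIM and nuclear body proteins, 6 rose with the knockout under vehicle and 4 under abemaciclib, or 5 and 3 of 5 without TRIM22. The shares of all tested genes called higher were 24.6% and 18.6%. SP100 (chr2:230415942-230544090), a core protein of PML nuclear bodies, had 26.5, 25.4, 25.0 and 21.4 CPM in knockout and 17.8, 16.9, 19.0 and 16.7 CPM in control cells under abemaciclib. Under vehicle SP100 had 23.6, 21.6, 22.4 and 23.0 CPM in knockout and 11.1, 9.17, 8.37 and 10.9 CPM in control cells. Vehicle-treated control libraries were the lowest, and the knockout libraries of the 2 treatments overlapped. SP100 changed with the knockout by 1.13 under vehicle and 0.46 under abemaciclib (SE 0.0778; limma adjusted p = 1.1e-13 and 2.1e-05). Its relative SP110 had 25.4, 25.0, 21.6 and 25.7 CPM in knockout and 21.2, 18.0, 19.6 and 15.8 CPM in control cells under abemaciclib. SP110 in vehicle had 24.0, 28.1, 24.8 and 23.3 CPM in knockout and 16.1, 11.2, 15.7 and 15.9 CPM in control cells. Knockout libraries of SP110 were above control libraries under both treatments, with changes of 0.74 under vehicle and 0.38 under abemaciclib (SE 0.0909). SP110 values were whole reads in 8 libraries, and it overlaps SP140 on the opposite strand.

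TRIM22, a restriction factor of several viruses, had 1.83, 1.33, 1.61 and 2.18 CPM in knockout and 0.934, 0.350, 0.935 and 0.482 CPM in control cells under abemaciclib. In vehicle TRIM22 had 0.446, 0.848, 0.806 and 1.11 CPM in knockout and 0.101, 0.298, 0.504 and 0.189 CPM in control cells. The treated knockout libraries were above all others, and the rest were near or below 1 CPM, or about 10 reads. Because only 5 libraries reached 1 CPM, the treated knockout group and 1 more, TRIM22 could be tested only because knockout cells held it. Its differences with the knockout were 0.72 under abemaciclib and 0.50 under vehicle, and with no filter the vehicle call was lost (limma adjusted p = 0.0595). TRIM21, the cytosolic antibody receptor, rose by 0.46 under abemaciclib and 0.80 under vehicle. TRIM14, an adaptor of MAVS, and TRIM25, the ligase that activates RIG-I, rose under vehicle (0.30 and 0.21) and were not called under abemaciclib (0.19 and 0.13; limma adjusted p = 0.074 and 0.068).

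Of the 3 remaining genes, RTP4, a receptor chaperone that binds viral RNA, had 2.103, 2.39, 2.04 and 2.54 CPM in knockout and 0.654, 0.788, 0.850 and 0.771 CPM in control cells under abemaciclib. RTP4 in vehicle had 1.59, 1.40, 1.52 and 1.39 CPM in knockout and 0.303, 0.496, 0 and 0.283 CPM in control cells. The 8 knockout libraries reached 1 CPM and none of the 8 control libraries did, so RTP4, like TRIM22, entered the test through knockout cells. Its difference was 0.89 under abemaciclib and 0.98 under vehicle (SE 0.130). LGALS3BP, a secreted glycoprotein that binds galectins, had 19.0, 15.8, 14.4 and 16.7 CPM in knockout and 15.3, 17.3, 20.6 and 16.8 CPM in control cells under abemaciclib. In vehicle it had 14.2, 19.4, 17.0 and 17.6 CPM in knockout and 10.3, 12.9, 10.2 and 9.52 CPM in control cells. The control libraries under vehicle were below the rest, and the other 3 groups overlapped. LGALS3BP rose with the knockout under vehicle by 0.62 (SE 0.0957; limma adjusted p = 3.2e-06) and was not called under abemaciclib (-0.08). SHISA5, an endoplasmic reticulum protein of p53-dependent apoptosis, rose by 0.18 under vehicle and was not called under abemaciclib (-0.03).

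The abemaciclib changes are collected here by role, as log2 changes in knockout cells and then in control cells. Beside ISG15, UBE2L6 rose by 0.17 and 0.29, and HERC6 was called in control cells alone (0.15 and 0.42). MX1 rose by 0.42 and 1.04 (SE 0.0360; limma adjusted p = 1.3e-11 and 2.0e-22), BST2 by 0.37 and 0.71 and RSAD2 by 0.34 and 0.70, while CMPK2 was called in control cells alone (0.16 and 0.40). Of the genes that act on RNA, SAMD9 rose by 0.26 and 1.04, HELZ2 by 0.45 and 0.91, DDX60L by 0.58 and 0.67 and SAMD9L by 0.49 and 0.57. DDX60 (0.89), TDRD7 (0.40) and ADAR (0.13) rose in control cells and were not called in knockout cells. Of the ADP-ribosylation genes PARP12 rose by 0.20 and 0.47 and PARP14 by 0.20 and 0.77, and PARP10 was called in control cells alone (0.34). XAF1 rose by 0.37 and 0.86 and IFI6 by 0.34 and 0.86. TRIM22 rose by 0.61 and 0.39, RTP4 by 0.40 and 0.49 and SHISA5 by 0.23 and 0.45. In control cells alone, SP100 (0.78), LGALS3BP (0.66), TRIM21 (0.55), SP110 (0.33) and IFI35 (0.26) were called higher. Rescaling by the median of ratios also called IFI44, HERC6, DDX60, ADAR, SP100 and TRIM21 higher in knockout cells. Their limma adjusted p were then 0.0165 to 0.0486, and the other genes called in control cells alone stayed uncalled. An effect called in 1 genotype and not in the other is not thereby shown to differ, which is the question of the interaction below.

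Several of these drug calls were lost when 1 library was left out, most of them whichever of several libraries it was and with changes that stayed close to those above. In knockout cells PARP14 was then at log2 changes of 0.159 to 0.211 (limma adjusted p = 0.0579 to 0.148, without library 1, 2 or 4 of either knockout group) and PARP12 at 0.180 to 0.189 (0.0555 to 0.068, without treated library 2 or 3 or vehicle library 1, 3 or 4). SAMD9 was at 0.198 to 0.248 (limma adjusted p = 0.0667 to 0.137, without treated library 1 or 4 or vehicle library 2, 3 or 4). RSAD2 was at 0.233 to 0.337 (limma adjusted p = 0.0511 to 0.151, without treated library 1, 3 or 4 or vehicle library 4). XAF1 was at 0.299 to 0.333 (limma adjusted p = 0.0565 to 0.0815, without treated library 1 or 4 or vehicle library 1). In control cells CMPK2 was at 0.245 without vehicle library 2, the 1 library whose removal ended its call (limma adjusted p = 0.12), and likewise ADAR at 0.0963 without vehicle library 4 (0.0657). TRIM22 was at 0.313 to 0.358 (limma adjusted p = 0.074 to 0.117, without treated library 1 or 3 or vehicle library 1 or 4). TDRD7 was at 0.258 to 0.398 (limma adjusted p = 0.0505 to 0.174, without treated library 1, 2 or 4 or vehicle library 1 or 3), lowest without vehicle library 1. With no filter on low values, PARP14, PARP12, SAMD9, RSAD2 and XAF1 also lost these calls in knockout cells (limma adjusted p = 0.0504 to 0.224). So did CMPK2, TRIM22 and TDRD7 in control cells (0.0647 to 0.159). Without the variance trend PARP14 (0.128) and TDRD7 (0.0724) lost theirs. RSAD2 lost its call with a pseudocount of 0.1 (0.0616), and TDRD7 with only the groups compared (0.0515).

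The interaction asks whether the knockout difference changed with treatment, which is the same as whether abemaciclib changed the 2 genotypes by unequal ratios. It was negative and called for 17 genes of the list and positive and called for IFI30, beside 6.16% of all tested genes called lower and 4.68% called higher. The median was -0.27 for the list and -0.03 for all tested genes, and 7 of the 45 were above 0. The called genes with the largest terms were IFI27 (-1.099), IFI44 (-0.81), ISG15 (-0.80), SAMD9 (-0.78), LGALS3BP (-0.70) and SP100 (-0.67), with limma adjusted p from 1.2e-16 to 8.7e-04. The term was also called for DDX60 (-0.66), MX1 (-0.62), PARP14 (-0.57), IFI6 (-0.52), PARP9 (-0.51), HELZ2 (-0.45), BST2 (-0.34), IFI35 (-0.27), EIF2AK2 (-0.22), SHISA5 (-0.22) and PLSCR1 (-0.20). The terms of IFI35, EIF2AK2 and PLSCR1 lay close to the threshold (limma adjusted p = 0.048, 0.045 and 0.029) and were lost under several settings. The DDX60 term was lost with no filter on low values (limma adjusted p = 0.151) and without the variance trend (0.0843). For IFI30 it was 0.42 (SE 0.118; limma adjusted p = 0.016), since abemaciclib lowered it by more in control cells.

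Within neighbouring pairs the term was called for 1 gene and not for the other in 6 cases. It was -0.81 for IFI44 and 0.06 for IFI44L, -0.78 for SAMD9 and -0.08 for SAMD9L, and -0.66 for DDX60 and -0.10 for DDX60L. For MX1 and MX2 it was -0.62 and 0.02, for PARP9 and DTX3L -0.51 and -0.29, and for SP100 and SP110 -0.67 and -0.36. Whether 2 genes of a pair differed in the term was not tested, and standard errors were up to 0.199 for the gene not called. The 1 CPM added before the log shrinks the ratios of low genes, and IFI44L averaged 0.64 CPM in control cells under vehicle. With 0.1 CPM added in its place the IFI44L term was -0.317.

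The log2 scale compares ratios, and a fit on untransformed CPM, chosen after the data had been seen, compares differences. Over all tested genes the interaction was called lower for 3.82% and higher for 5.74% on that scale. There 9 of the 17 were called lower, which were IFI6, IFI27, PARP9, EIF2AK2, BST2, LGALS3BP, SP100, PLSCR1 and SHISA5, while ISG15, MX1, IFI35, IFI44, SAMD9, PARP14, DDX60 and HELZ2 were not. ISG15 gained 55.6 CPM with abemaciclib in knockout cells and 70.0 CPM in control cells, a difference of -14.4 CPM with an SE of 5.28 (limma adjusted p = 0.105). IFI27 gained 68.1 CPM in knockout cells and 172 CPM in control cells, a difference of -104.3 CPM (SE 6.07; limma adjusted p = 6.0e-09). IFI44L was called higher on this scale alone, with gains of 2.38 CPM in knockout cells and 1.03 CPM in control cells (limma adjusted p = 0.0267). IFI30 was not called (limma adjusted p = 0.241).

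**Figure D4:**
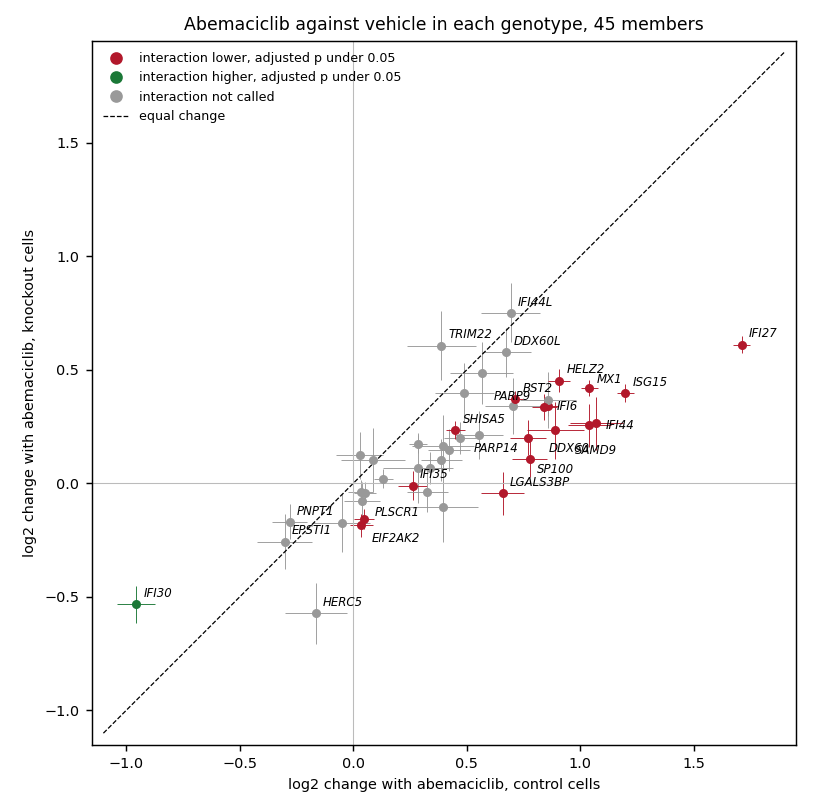
Difference between abemaciclib and vehicle in log2(CPM + 1), in knockout cells (y axis) against control cells (x axis), for the 45 genes. Bars are 1 standard error of the limma fit, the dashed line marks equal change, and colour marks the called interaction; the 17 red points lie below the line and IFI30, in green, above it. Both axes come from separate libraries, and the plot shows IFI27 farthest from the line.

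The rest of the interferon pathway was looked at through lists of its ligands, its receptors and signalling proteins, its sensors and the families left out above. Of 21 interferon genes, 16 were at 0 in every library and none passed the filter. IFNB1 and IFNG reached at most 2 reads in a library, IFNL1 8 reads, IFNL2 4.33 reads and IFNL3 8.33 reads, where fractions can come from reads shared between the near-identical lambda genes. Summed ligand expression was 0.915 to 0.999 CPM in knockout cells and 0.841 to 1.25 CPM in control cells under abemaciclib, and 0.836 to 1.85 CPM in knockout cells and 0.471 to 0.504 CPM in control cells under vehicle. The vehicle sums did not overlap. In a fit with no filter on low values, added after the data had been seen, IFNL1 was the 1 ligand called, with 0.518 ± 0.106 CPM in knockout cells against 0.149 ± 0.102 CPM in control cells under vehicle (SD, n = 4), a log2 change of 0.40 (SE 0.116; limma adjusted p = 0.0289). Under abemaciclib IFNL1 had 0.289 ± 0.116 CPM in knockout cells and 0.369 ± 0.270 CPM in control cells (limma adjusted p = 0.852). These levels are a few reads per library. Of 18 receptor, JAK-STAT and IRF genes, 8 rose and 1 fell with the knockout under vehicle, beside 24.6% and 13.1% of all tested genes. IRF1, an early transcription factor of the response, had 9.54 ± 0.725 against 3.95 ± 0.742 CPM in knockout and control cells under abemaciclib and 11.4 ± 0.385 against 3.76 ± 0.366 CPM under vehicle (SD, n = 4). It rose by 1.1 under abemaciclib and 1.38 under vehicle. IRF7 rose by 0.28 under abemaciclib and 0.73 under vehicle, and in the same order of treatments IRF9 rose by 0.30 and 0.61 and the receptor kinase TYK2 by 0.35 and 0.65. The kinase JAK1, which works beside TYK2, went the other way and fell by 0.92 under abemaciclib and by 0.64 under vehicle.

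Of 12 sensors and adaptors 9 could be tested, and 7 rose and none fell with the knockout under vehicle. Beside this list and the next, 24.6% of all tested genes rose and 13.1% fell. RIGI and IFIH1, the cytosolic sensors of viral RNA, rose by 0.61 and 0.65 under abemaciclib and by 1.36 and 1.04 under vehicle. TLR3, DHX58, TRAF3 and MAVS rose by 0.66, 0.63, 0.55 and 0.22 under vehicle. Of the 12 OAS, IFIT and IFITM genes 11 rose, led by IFIT3 (1.954), OAS1 (1.87), IFIT1 (1.63), IFITM3 (1.44), IFIT2 (1.40) and OASL (1.31). Their interaction was called lower for 10 of the 12 and higher for none, beside 6.16% and 4.68% of all tested genes. Its median over the 12 was -0.56.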

How the data were processed

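RNA of 16 libraries, 4 in each of 4 groups, was analysed. The authors deposited 1 table of CPM, and each library's CPM sum to 1000000 over its features. Per the submitters' processing notes STAR 2.7.11, SAMtools 1.22.1, featureCounts of Subread 2.1.1 and MultiQC 1.32 were used with GRCh38; the sources used here give neither the strand setting nor the annotation release. The 92 ERCC spike-in features were left out. Library depth was read from the smallest step of the values. Only 70.2 to 71.8% of values were whole reads within 0.02 reads, so no count test was run.

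Log2(CPM + 1) of 16218 genes (1 CPM or more in 4 libraries or more) was fitted with limma 3.58.1 in R 4.3.3 as 4 group means with a variance trend, tested two-sided and adjusted over all tested genes by Benjamini and Hochberg; a call is an adjusted p under 0.05. Fold changes on this scale understate those of low genes. The fit was tested on simulated data. Groups came from the sample titles. Alternatives were a pseudocount of 0.1, no filter, rescaling by the median of ratios, quantile normalization, no trend, only the groups compared, a replicate block and leaving out each library. The 4 replicate numbers were not taken to pair libraries.

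The 45 genes, their role groups and the other gene lists were chosen with earlier results of these data known. Values in every library are given for the 10 called genes with the largest change in each knockout comparison, the 6 largest in each abemaciclib comparison and in the interaction, up to 6 called against the majority of a comparison, and both genes of a neighbouring pair of which 1 was called. From each other list up to 6 genes are named by their change with the knockout under vehicle, and interferon genes with any reads; 1 gene this names is not reported here. Promoter windows are RefSeq on GRCh38.p14; MX2, PARP10, TRIM22 and USP18 had none.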

Additional observations from a re-analysis of the deposited data

Results flagged for a closer look

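In 11 of 180 groups of 4 libraries 1 library lay apart from its group by the Dixon criterion, which chance alone meets in about 1 of 20 groups. Under abemaciclib these were USP18 in knockout library 4 (1.91 CPM), IFI16 in control library 4 (1.35 CPM), PARP9 in control library 4 (34.4 CPM) and PARP10 in control library 2 (20.9 CPM). Under vehicle they were PARP12 in knockout library 2 (20.05 CPM) and, in control cells, XAF1 (1.82 CPM) and DDX60L (2.52 CPM) in library 1, SP110 (11.2 CPM) and HELZ2 (31.5 CPM) in library 2, and TRIM14 (10.7 CPM) and PNPT1 (15.6 CPM) in library 4. No library stood out in more than 2 genes.

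For 18 genes the knockout difference itself differed between abemaciclib and vehicle by the interaction test in limma on the log2 scale. The term was -1.099 for IFI27, -0.81 for IFI44, -0.80 for ISG15, -0.78 for SAMD9, -0.70 for LGALS3BP, -0.67 for SP100, -0.66 for DDX60, -0.62 for MX1 and -0.57 for PARP14. It was -0.52 for IFI6, -0.51 for PARP9, -0.45 for HELZ2, -0.34 for BST2, -0.27 for IFI35, -0.22 for EIF2AK2, -0.22 for SHISA5 and -0.20 for PLSCR1, and 0.42 for IFI30.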

How the results depend on the processing

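Of the recomputed single-gene changes 4914 kept their direction and their side of the threshold, 122 lost the call, 47 gained one and 47 turned sign, none of which was called in the reported fit; for all changes below the cause was not tested. The called genes that held in every alternative were 37 of 42 with the knockout under vehicle, 32 of 34 with the knockout under abemaciclib, 30 of 35 with abemaciclib in control cells, 15 of 23 with abemaciclib in knockout cells and 14 of 18 in the interaction. Leaving out 1 library gave 40 to 42 genes higher and none lower, 32 to 35 higher and 1 lower, 30 to 32 higher and 2 to 4 lower, 15 to 20 higher and 4 to 5 lower, and 1 higher and 14 to 19 lower in these 5 comparisons. With abemaciclib in knockout cells 2 genes were lower in place of 4 after rescaling by the median of ratios and 2 after quantile normalization, where PLSCR1 and EIF2AK2 were lost; the second moved the median of all genes by 0.10. On CPM without a log, chosen after seeing the data, the interaction was lower for 9 genes in place of 17. Fitting the replicate number as a block gave 42 higher and 0 lower, 34 and 1, 32 and 3, 19 and 4, and 1 and 16; IFI35 lost its interaction and TRIM25 gained a call under abemaciclib. The same-numbered libraries correlated at -0.0367 to 0.0603, none of the 4 numbers was the best match in every pair, and the block is no evidence of pairing.

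Calls were also lost with the knockout under vehicle for IFI16 (adjusted p = 0.0563 in limma) and TRIM22 (0.0595) with no filter, and for TRIM22 with quantile normalization (0.0669); RTP4 lost its call in knockout cells with a pseudocount of 0.1 (0.178). Among changes that were not called, abemaciclib in knockout cells turned to 0.078 for IFI35, 0.042 for LGALS3BP, 0.050 for SP110, 0.0088 for TRIM14, 0.048 for TRIM25 and 0.046 for ZC3HAV1 with the median of ratios. With quantile normalization these were 0.087, 0.075, 0.066, 0.044, 0.054 and 0.057, and TDRD7 was at 0.015. The interaction turned to -0.317 for IFI44L and -0.021 for TRIM22 with the smaller pseudocount, and to 0.0090 for RTP4 with quantile normalization.

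Leaving out 1 library also turned the sign of some changes near 0 that were not called, given here as the lowest and highest value. With the knockout under vehicle they were -0.012 to 0.217 for MX2. With the knockout under abemaciclib they were -0.028 to 0.242 for TDRD7. With abemaciclib in control cells they were -0.171 to 0.017 for USP18, -0.010 to 0.096 for TRIM14, -0.0092 to 0.056 for TRIM25, -0.067 to 0.083 for ISG20 and -0.034 to 0.195 for MX2. With abemaciclib in knockout cells they were -0.053 to 0.060 for IFI35, -0.123 to 0.017 for LGALS3BP, -0.069 to 0.020 for SP110 and -0.0036 to 0.121 for IFI16. For the interaction they were -0.091 to 0.138 for MX2, -0.033 to 0.118 for EPSTI1, -0.018 to 0.143 for IFI44L and -0.172 to 0.022 for RTP4.

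Depth limits the low genes: at about 10 reads for 1 CPM, USP18, IFI16, TRIM22, RTP4, SAMD9L, CMPK2, IFI44L and RSAD2 rest on few reads in control libraries. Values of 10 of the 45 genes were whole reads in 8 or fewer of the 16 libraries, MX1 and IFI6 among them, and are uncertain for reads shared with other features. Neither strand, nor the guides, nor whether libraries were separate cultures is given in the sources used here.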
